A study of Mus musculus with 2 samples.

Results

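The genes described here are 5 microRNA genes that lie in imprinted regions of the mouse genome outside the large Dlk1-Dio3 domain: Mir296 and Mir298 at Gnas, Mir335 in Mest, Mir675 in H19 and Mir483 in Igf2. They were chosen by name and locus, not by level, from the 2202 microRNA genes listed for each library. The data are microRNA reads from 2 libraries of hippocampus of wild-type female mice of strain B6NCrl, an untreated control group with no second condition. The labels give no age and no drug, transgene or deletion. They call the libraries biological replicates 1 and 2 and name a shared donor record, and nothing says whether separate animals were used. A spread between the libraries may therefore be technical.

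In an imprinted region, a mark set in the egg or sperm lets only the maternal or only the paternal copy of a gene be transcribed. A microRNA inside such a transcript shares its parental origin: Mir675 is cut from the maternally expressed H19 RNA, while Mir483 and Mir335 lie in the paternally expressed genes Igf2 and Mest, and Mir296 and Mir298 have been assigned to the paternally expressed antisense transcript of Gnas. A microRNA is cut from a hairpin, and its bases 2 to 8, the seed, pair with target messenger RNAs. In adult brain Igf2 is best known from the choroid plexus and meninges, and H19 is silenced after birth in most tissues. No read in these tables tells the maternal from the paternal copy, so imprinting itself was not measured.

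The mature sequences are shown because they define which targets each gene can pair with and how far its reads can be told from those of other genes. They are from RefSeq (GRCm38.p6), read 5′ to 3′ with the seed in capitals, and all 5 genes had an entry.
miR-296-5p: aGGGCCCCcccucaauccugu
miR-296-3p: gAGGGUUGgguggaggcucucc
miR-298-5p: gGCAGAGGagggcuguucuuccc
miR-298-3p: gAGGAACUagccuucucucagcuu
miR-335-5p: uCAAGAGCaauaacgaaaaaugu
miR-335-3p: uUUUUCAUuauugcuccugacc
miR-675-5p: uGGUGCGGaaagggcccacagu
miR-675-3p: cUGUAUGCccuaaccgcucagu
miR-483-5p: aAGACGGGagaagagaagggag
miR-483-3p: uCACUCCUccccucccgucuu

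These 10 sequences carry 10 different seeds. None of the 1738 mature sequences of the 1058 microRNA genes in the RefSeq table shared a seed with them outside its own gene. Bases 2 to 7 alone were shared with 4 other genes, of which Mir5621 (with miR-296-5p) had 18 and 11 counts and Mir6986 (with miR-335-3p) 28 and 23 counts. Mir7646 (miR-335-5p) and Mir3110 (miR-483-3p) had 0 counts in both libraries. The 5 genes thus form no seed family among themselves, and they have in common their imprinted surroundings. Their mature RNAs are 21 to 24 bases long, and the tables give 1 count per hairpin, so the 5p and 3p arms cannot be told apart.

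The pair at Gnas lies close together, and the hairpins are shown here with both mature arms in capitals.
Mir296: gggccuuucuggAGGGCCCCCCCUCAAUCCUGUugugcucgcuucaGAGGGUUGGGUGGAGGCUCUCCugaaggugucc
Mir298: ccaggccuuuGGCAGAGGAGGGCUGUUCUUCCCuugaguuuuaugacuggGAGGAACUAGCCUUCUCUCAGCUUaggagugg

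Mir296 (ENSMUSG00000065521.1) lies on the minus strand of chromosome 2 at 174267047 to 174267125, in mm10 coordinates. Mir298 (ENSMUSG00000065410.1) lies on the same strand at 174267504 to 174267585, with 378 bases between the hairpins. Neither falls inside another annotated gene of GENCODE M21. They lie 13.7 kb beyond the annotated end of Nespas, the antisense transcript of Gnas, which runs on the same strand. Mir335 (ENSMUSG00000065501.1) is in an intron of Mest, on the plus strand of chromosome 6 at 30741299 to 30741396. Mir675 (ENSMUSG00000076275.1) is in an exon of H19, on the minus strand of chromosome 7 at 142577064 to 142577147. Mir483 (ENSMUSG00000070140.1) is in an intron of Igf2 on the same strand at 142654924 to 142654996, 77.8 kb away. There it also lies in an intron of another annotated protein-coding gene of that strand, Gm49394.

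All 5 RefSeq hairpins were identical to the GENCODE M21 sequences. The longest stretch that each shared with any other hairpin in the tables, on either strand, was 12 bases for Mir296 and Mir298, 14 for Mir335, 11 for Mir675 and 13 for Mir483. These stretches are shorter than a mature microRNA, whereas reads that map to several places are assigned to no gene in these tables. GC content of the hairpin was 63.3% for Mir296, 63.1% for Mir675, 58.9% for Mir483, 53.7% for Mir298 and 42.9% for Mir335, beside a median of 52.8% over the 466 genes tested below. The group therefore spans both sides of that median. No antisense count fell on any of the 5 genes.

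Replicate 1 held 6713867 counts on the sense strand of microRNA genes and replicate 2 held 5901107, shares of 42.5% and 41.3% of all reads. Levels below are counts per 1000000 of these totals (CPM). As a check of the tissue label, 11 of 12 neuron marker genes had counts, 8 of them with a mean of at least 10. Their summed levels were 32404 and 32365 CPM, led by Mir132. Single neuron genes differed more than these sums, as with Mir128-1 at 3723 and 8772 CPM. In the comparison of the libraries below, 4 of the 8 were lower in replicate 2 and 4 higher. Over all genes compared there, 35.6% were lower and 18.0% higher. The liver microRNA Mir122 had 55.1 and 42.0 CPM and the muscle microRNA Mir206 had 32.6 and 19.3 CPM. The 5 other muscle genes listed had 0 counts. Several of them are copies with the same mature sequence, to which multimapping reads were not assigned, so these 0 counts do not bear on the tissue. The neuron list also holds numbered copies to which the same limit may apply, such as Mir124a-2 with 0 counts and Mir124a-3 with 7 and 1. Intervals on single libraries are exact 95% Clopper-Pearson intervals that cover counting error only, because reads without molecular identifiers are not independent molecules.

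Together the 5 genes held 37566 counts in replicate 1 and 3080 in replicate 2. These are 0.559% and 0.0522% of the microRNA counts, and their summed level was 3059 ± 3587 CPM (SD, n = 2). Most of this gap came from Mir298. Without it the other members summed to 759 and 261 CPM. In both libraries the order of levels was Mir298, Mir296, Mir335, Mir483, with Mir675 at 0.

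Mir298, which has been described as a regulator of the Alzheimer-linked protease gene Bace1, was the most abundant of the group. It had 32467 counts in replicate 1, or 4836 CPM (4783 to 4889), and 1542 counts in replicate 2, or 261 CPM (248 to 275). Its mean of 2549 ± 3235 CPM (SD, n = 2) placed it 54th of all genes, with an SD larger than the mean. That rank therefore describes neither library well. Mir296, a microRNA known from growth factor signalling in blood vessel cells, had 3738 counts, or 557 CPM (539 to 575), in replicate 1. In replicate 2 it had 1043 counts, or 177 CPM (166 to 188), and its mean was 367 ± 269 CPM (SD, n = 2). It was high in the same library as its neighbour Mir298, and Mir298 was the higher of the pair within each library, although their ranges over the libraries, 261 to 4836 and 177 to 557 CPM, overlapped.

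Mir335, studied as a suppressor of metastasis in breast cancer, had 1187 counts in replicate 1, or 177 CPM (167 to 187). It had 362 counts in replicate 2, or 61.3 CPM (55.2 to 68.0), with a mean of 119 ± 81.6 CPM (SD, n = 2). Its level in replicate 1 was close to that of Mir296 in replicate 2, but within each library Mir296 was the higher, with 3.15 and 2.88 reads per read of Mir335. Mir483, whose 3p arm is known to act on the pro-apoptotic gene Bbc3, had 174 counts, or 25.9 CPM (22.2 to 30.1), in replicate 1 and 133 counts, or 22.5 CPM (18.9 to 26.7), in replicate 2. The mean was 24.2 ± 2.39 CPM (SD, n = 2), an SD of 9.86% of the mean against 73.3% for Mir296, 68.6% for Mir335 and 127% for Mir298. Both values of Mir483 lay below both values of Mir335.

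Mir675, known for limiting growth of the placenta, had 0 counts in either library. The limit set here for a count of 0 is 3 counts, which is 0.447 CPM in replicate 1 and 0.508 CPM in replicate 2. Lower levels were not detectable at this depth. The exact 95% intervals used for the other members reach further, to 0.549 and 0.625 CPM. Against the limit of 3 counts in each library, the measured count of Mir483 at the adjoining Igf2 gene was at least 58.0-fold higher in replicate 1 and at least 44.3-fold higher in replicate 2. The exact 2-sided 95% intervals of the ratio began at 46.7-fold and 35.6-fold. They use a wider limit for the count of 0 than 3 counts, so these values are not directly comparable with the previous ones. The maternally expressed member of the H19-Igf2 pair was thus below detection where the paternally expressed member was measured. Reads of a small RNA do not tile its hairpin, but per 100 bases of hairpin the mean levels had the same order: 3108 CPM for Mir298, 464 for Mir296, 121 for Mir335 and 33.2 for Mir483.

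**Figure D1:**
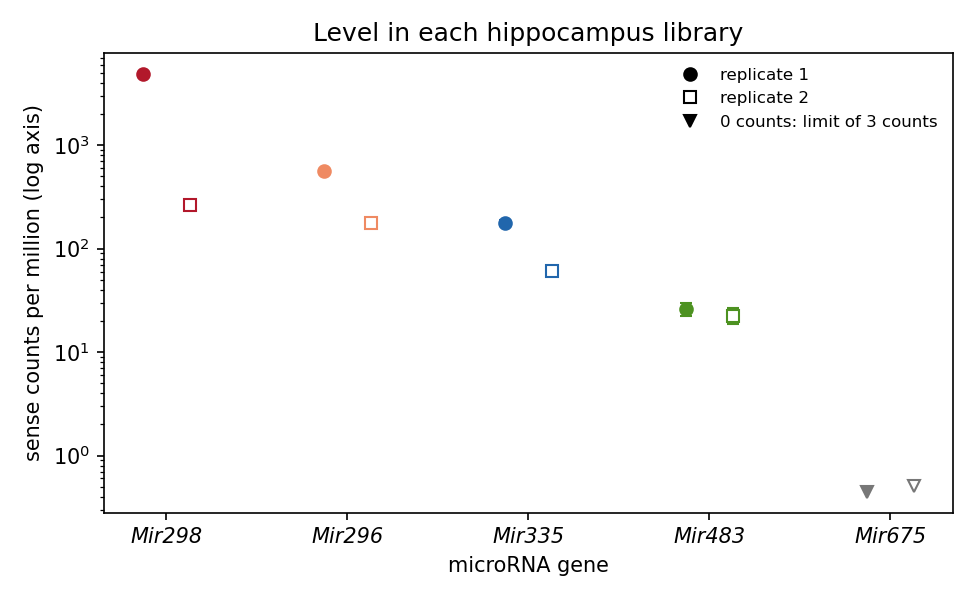
Sense counts scaled to a common total (CPM, log axis) of the 5 imprinted microRNA genes in replicate 1 (filled circles) and replicate 2 (open squares), with exact 95% intervals for counting error that are mostly smaller than the symbols. Mir298 has 4836 and 261 CPM while Mir483 has 25.9 and 22.5 CPM, and the triangles for Mir675 mark the limit that 3 counts set, since both libraries had 0.

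The libraries were then compared with each other, gene by gene, for the 466 genes that averaged at least 10 counts. The 2-sided Fisher exact test with Benjamini-Hochberg adjustment over all 466 compares these libraries and not conditions, and it covers counting error only. A gene was called lower or higher in replicate 2 if its adjusted p was below 0.05 and its log2 ratio had the same sign under 3 scalings. Log2 ratios are of replicate 2 over replicate 1 under edgeR's TMM scaling. The Fisher test uses counts without this scaling, so its p goes with the ratio under totals and not with the printed TMM ratio. Of the 5 genes 4 were tested, 3 were lower in replicate 2, 0 were higher, Mir483 did not pass and Mir675 had no counts. Among all tested genes 35.6% were lower and 18.0% higher.

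All 3 members called lower differed at least 2-fold, which only 6.87% of the tested genes did in that direction. Mir298 was 16.5-fold lower (exact 95% interval 15.7 to 17.4), a log2 ratio of -4.05 (counting SE 0.04), and only 3 tested genes had a lower ratio. Its adjusted p by Fisher's exact test lay below what the software can represent. Mir296 was 2.82-fold lower (2.63 to 3.02), a log2 ratio of -1.49 (SE 0.05), with an adjusted p of 4.10e-280 by Fisher's exact test, and 15 genes had a lower ratio. Mir335 was 2.58-fold lower (2.29 to 2.91), a log2 ratio of -1.36 (SE 0.09), with an adjusted p of 5.21e-80 by Fisher's exact test, and 21 genes had a lower ratio. Genes on 2 chromosomes, at Gnas and at Mest, were thus lower in the same library.

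For Mir483 the log2 ratio was -0.04 (SE 0.17), with a fold of 1.03 (exact 95% interval 0.816 to 1.30) for replicate 1 over replicate 2 and an adjusted p of 0.320 by Fisher's exact test. A 2-fold difference in either direction lies outside that interval. Over all tested genes the log2 ratios had a median of -0.02 (-0.18 under totals) and an SD of 0.82. Their 5th percentile was -1.25 and their 95th percentile was 1.12. Mir298, Mir296 and Mir335 lay below that 5th percentile and Mir483 lay near the median. The 4 tested members had a median log2 ratio of -1.43, and since they were picked with earlier results of these data known, no test of the group was made. Each side of this comparison is 1 library, so there is no replicate check. The adapter trimming document linked in the labels also differs between the libraries, and processing and tissue sample cannot be told apart.

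**Figure D2:**
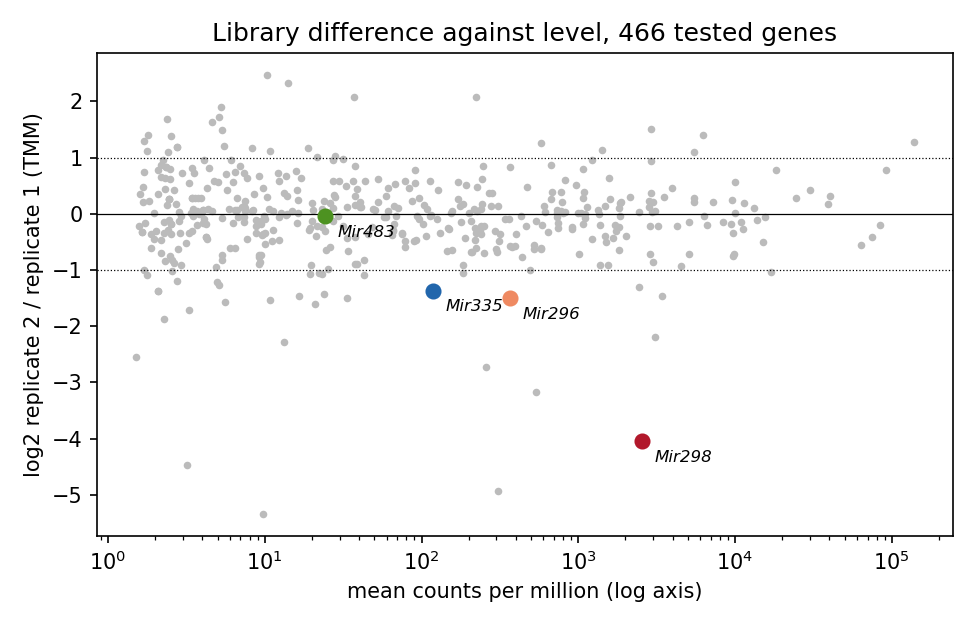
Log2 ratio of replicate 2 over replicate 1 (TMM scaling) against mean CPM (log axis) for the 466 tested genes in grey, with the tested imprinted genes in colour and dotted lines at 2-fold. Mir298 stands at -4.05, Mir296 and Mir335 at -1.49 and -1.36, and Mir483 at -0.04.

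Mir298 had a lower ratio than every gene with a higher mean level. Of these 53 genes, the lowest log2 ratio was -2.19, for Mir107, and the highest was 1.50, for Mir370. Among genes with a lower mean level, Mir31 (984 and 97.6 CPM), named after its values were seen, stood at -3.17. The genes with a lower ratio than Mir298, named after their values were seen, were Mir217, Mir3547 and Mir216a, with means of 9.70, 309 and 3.21 CPM.

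Ratios between members within a library need no scaling to a total. Mir298 had 8.69 reads per read of Mir296 in replicate 1 (exact 95% interval 8.40 to 8.99) and 1.48 (1.37 to 1.60) in replicate 2. It made up 89.7% of the pair's reads (89.4 to 90.0) in replicate 1 and 59.7% (57.7 to 61.5) in replicate 2, so the pair at Gnas did not move by a common factor. The pair's ratio differed 5.88-fold between the libraries (95% interval 5.39 to 6.40, counting error on the log scale). The hairpins are 378 bases apart and on the same strand, yet Mir298 differed more between the libraries than Mir296.

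Mir296 and Mir335, on different chromosomes, kept nearly the same proportion. There were 3.15 reads of Mir296 per read of Mir335 (2.95 to 3.36) in replicate 1 and 2.88 (2.55 to 3.26) in replicate 2. These intervals overlapped, and the ratio differed 1.09-fold (0.954 to 1.25) between the libraries. By contrast, reads of Mir296 per read of Mir483 were 21.5 (18.5 to 25.2) in replicate 1 and 7.84 (6.54 to 9.46) in replicate 2. Reads of Mir335 per read of Mir483 were 6.82 (5.81 to 8.04) and 2.72 (2.22 to 3.35). Mir483 therefore stood apart from Mir296 and Mir335 beyond counting error, without any choice of scaling.

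The make-up of the group differed accordingly. In replicate 1 Mir298 held 86.4% of the members' counts (86.1 to 86.8), Mir296 9.95%, Mir335 3.16% and Mir483 0.463%. In replicate 2 Mir298 held 50.1% (48.3 to 51.9), Mir296 33.9%, Mir335 11.8% and Mir483 4.32%. For Mir675, the limit of 3 counts beside Mir483 allows a share of up to 1.72% and 2.26% of the pair's reads at H19 and Igf2. The exact 95% intervals of that share reach 2.098% and 2.735%.

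**Figure D3:**
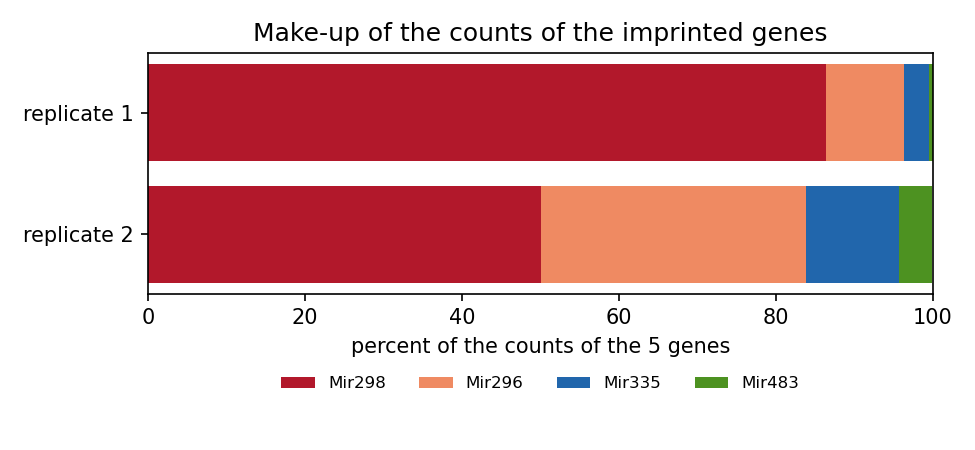
Percent of the summed counts of the imprinted genes held by each gene in replicate 1 (37566 counts) and replicate 2 (3080 counts). Mir298 holds 86.4% and 50.1% and Mir483 holds 0.463% and 4.32%, while Mir675 has no counts and no segment.

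Other microRNA genes within 1 Mb of a member gave a view of the surroundings. There were 11 such genes, 7 with counts and 6 tested, of which 1 was lower and 2 higher in replicate 2. Over all tested genes 35.6% were lower and 18.0% higher. Near Mest, Mir183 and Mir182 of the sensory Mir183 cluster, about 572 and 575 kb from Mir335, were higher, with log2 ratios of 0.78 (SE 0.09) and 0.59 (SE 0.16) and adjusted p of 3.94e-12 and 0.0129 by Fisher's exact test. Mir29a, 321 kb away on the other side, was lower with a log2 ratio of -0.19 (SE 0.01). Mir29b-1 beside it had 378 and 370 counts and did not pass (adjusted p = 0.210 by Fisher's exact test). The log2 ratio of Mir29b-1 was 0.32 (SE 0.11) under TMM and 0.16 under totals. Mir335 was lower in replicate 2 by at least 2-fold, and none of its tested neighbours on either side was. Only 6.87% of all tested genes were that much lower, so so few neighbours do not set Mir335 apart from its surroundings. Around H19 and Igf2, Mir7063 had 26 and 21 counts and Mir3104 had 10 and 21, and neither passed. Near Gnas the only other annotated genes, Mir6340 and Gm27591, had 0 counts.

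**Figure D4:**
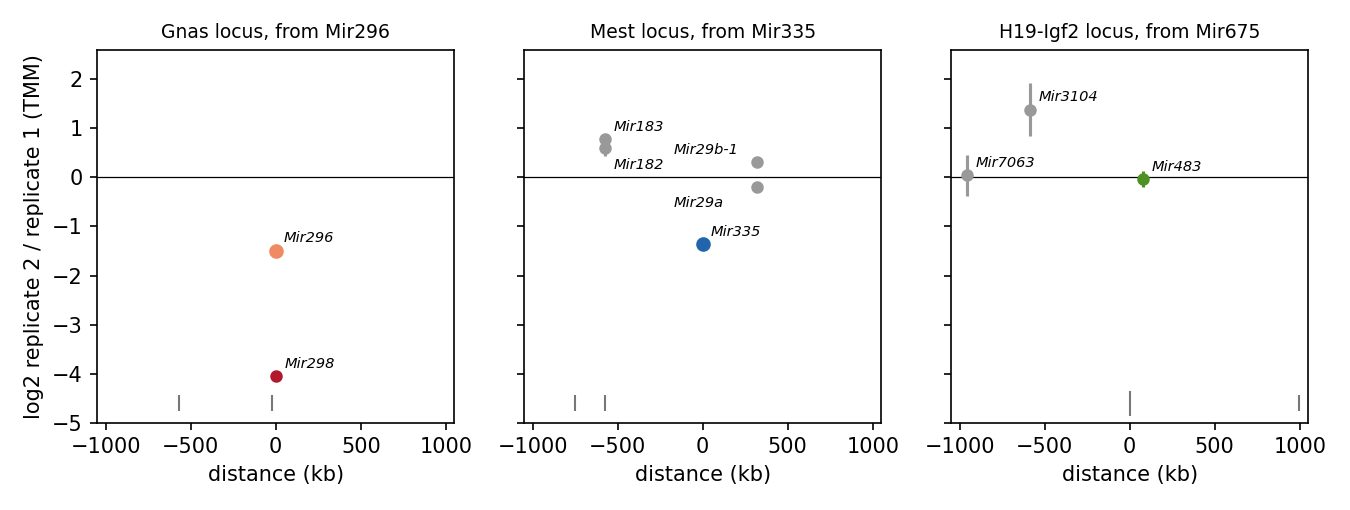
Log2 ratio of replicate 2 over replicate 1 (TMM scaling) against distance in kb from Mir296, Mir335 or Mir675, with bars for the counting SE, for microRNA genes within 1 Mb at each locus. Ticks at the bottom mark genes with too few counts for a ratio, Mir675 among them. Mir296, Mir298 and Mir335 lie below -1 and the other tested genes do not.

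Other imprinted regions with microRNA genes had median log2 ratios nearer to 0 than the -1.43 of the tested members, where a median is given. At Dlk1-Dio3, whose microRNAs come from the maternal chromosome, 28 of 51 tested genes were lower and 8 higher, with a median log2 ratio of -0.20, and its leading genes Mir127, Mir770 and Mir382 stood at -0.56, -1.04 and -0.71. In the paternally expressed Sfmbt2 gene 8 of 119 microRNA genes were tested, 4 were lower and 0 higher, with a median of -0.20. Its leading genes Mir467d, Mir669c and Mir467c had ratios of -0.55, 0.02 and -0.48, while Mir669h, named after its values were seen, had 169 and 48 counts and a ratio of -1.46 (SE 0.23), between those of Mir296 and Mir335. In the Mir344 family, which lies near Ndn and Magel2 in the Prader-Willi region, 4 of 13 genes were tested. Mir344g (50 and 16 counts) was lower at -1.27, Mir344b (196 and 218) was higher at 0.50, and Mir344d-3 (211 and 161) had -0.04 and did not pass. Among the tested genes of each of these 3 lists, 1 was lower by at least 2-fold: Mir770, Mir669h and Mir344g. Counts of called genes in these lists stand beside 35.6% lower and 18.0% higher over all tested genes, and no test set the lists against the 5 genes.

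The genes most like each member over the 2 libraries were found by Euclidean distance on log2(CPM + 1), a description that rests on 2 points per gene. For Mir298 the nearest were Mir107 (5146 and 1005 CPM, distance 1.94), Mir7b and Mir98, all lower in replicate 2 but by less. For Mir296 they were Mir339 (387 and 217 CPM, distance 0.598), Mir17 and Mir3099. For Mir335 they were Mir130b (128 and 86.9 CPM, distance 0.679), Mir376a and Mir384. For Mir483 they were Mir92-2 (24.0 and 22.7 CPM, distance 0.108), Mir8111 and Mir33. Mir483 thus had the nearest matches, and Mir298 was the member farthest from any other gene.

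Markers of other cell types also differed between the libraries, and their part in the results above was not tested. For choroid plexus and ependyma 5 of 7 genes had counts (Mir449b and Mir449c were at 0), and they summed to 2056 CPM in replicate 1 and 1747 CPM in replicate 2. Of the 5 genes tested in that list 3 were lower and 1 higher, with a median log2 ratio of -0.99. Mir34c was lower, at 451 and 61.2 CPM, and so was Mir34b, at 34.7 and 15.6 CPM. The leading gene Mir204, which holds most of the sum, stood at 1532 and 1653 CPM. Endothelium, with Mir126a and with Mir126b at 0, had 6191 and 2897 CPM, and mural cells, with both genes present, had 2479 and 1504 CPM. Oligodendrocyte genes (3 of 3 with counts) had 7078 and 3193 CPM. Their leading gene Mir219a-2 had 5126 and 1671 CPM, a log2 ratio of -1.46, which lies between those of Mir296 and Mir335. The other oligodendrocyte genes, Mir338 and Mir219a-1, stood at -0.20 and -0.04, and the median of the list was -0.20. Mir34c at -2.72 was lower than Mir296 and Mir335, while Mir204 of the same list stood at 0.27. Erythrocyte genes (2 of 2) had 72.2 and 31.7 CPM. Microglia and leukocyte genes (6 of 6) summed to 2028 and 2246 CPM, where Mir150 had 1303 and 1815 CPM. Of the 6, 4 were lower and 2 higher in replicate 2, with a median log2 ratio of -0.50. Among tested genes of the other lists, 2 of 2 erythrocyte, 2 of 3 oligodendrocyte and 1 of 2 mural genes were lower. None of these 3 lists had a gene called higher, and Mir126a was lower. Such counts stand beside 35.6% lower and 18.0% higher over all tested genes. In bulk tissue, fewer cells of a type and less RNA per cell cannot be told apart.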

How the data were processed

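The members and gene lists were chosen with earlier results of these data known. RNA below 30 nt was sequenced, per the labels, and adapters were trimmed by a document that differs between the libraries. The authors deposited raw read counts per microRNA gene for mm10 and GENCODE M21, per the text notes that accompany the tables. Which aligner and counter made them is not given in the sources used here. Of the 3 count columns the sense column, the strand column with the larger total, was used. The 4 classes of unassigned reads (57.5% and 58.7% of reads) stayed out of totals. All 2202 identifiers matched GENCODE M21.

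Levels are CPM. Genes averaging at least 10 counts were compared by Fisher's exact test (scipy 1.17.1, 2-sided, Benjamini-Hochberg). Log2 ratios add 0.5 counts and use TMM factors from edgeR 4.0.16 over all genes with counts, checked against totals and DESeq2 1.42.0 size factors. Planned changes of column, denominator, filter, added count or scaling were tried for the members' levels, ratios, calls and shares and for the other imprinted lists. The filter was changed for neighbouring genes after the data were seen, and marker lists and nearest genes were computed under 1 setting. The test was run on simulated data first. Named genes were all members, tested microRNA genes within 1 Mb, the 3 nearest genes by level, 3 leading genes of each other imprinted list, genes sharing a seed, and marker lists by sum and leading gene. Bases 2 to 7 were searched after the seed search had been seen.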

Additional observations from a re-analysis of the deposited data

How the results depend on the processing

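Of 87 values recomputed under the alternatives, 83 kept their direction and their side of the threshold or moved by less than the spread between the libraries. Leaving out a library cannot move a mean over both libraries by as much as their SD. Those values therefore had to count among the 83, as had the 0 of Mir675 under any change of denominator. The 83 is thus no measure of how stable the levels are between libraries. The 3 members called lower passed under every filter and count column tried. The Fisher test uses unscaled counts, so the added count and the scaling could change only the sign of a ratio. For these 3 members the sign stayed negative throughout. Their log2 ratios ranged from -4.21 (totals) to -4.01 (TMM over the tested genes, added after the data were seen) for Mir298, from -1.65 to -1.46 for Mir296 and from -1.53 to -1.33 for Mir335. The ratio of Mir483 ranged from -0.20 under totals to -0.0017 under TMM over the tested genes and never passed, with adjusted p by Fisher's exact test between 0.320 and 0.921. Every detected member's level moved with the denominator. Over all reads of the library the means were 1082 CPM for Mir298, 155 for Mir296, 50.2 for Mir335 and 10.2 for Mir483, and without Mir139 in the total they were 2810, 414, 135 and 28.1 CPM. Only for Mir483, whose libraries were close, was this more than the SD. In the Mir344 family the number of genes called lower went from 1 to 0 at a mean of 50 or more counts, which removes Mir344g, and the number called higher went from 1 to 0 with no filter on low counts, where more genes share the adjustment. Leaving out each library in turn gave levels of 261 and 4836 CPM for Mir298, 177 and 557 for Mir296, 61.3 and 177 for Mir335, 22.5 and 25.9 for Mir483 and 0 for Mir675, and shares of Mir298 in the pair at Gnas from 59.7% to 89.7%. With either library left out no comparison between libraries is possible. No paired analysis was possible because there is 1 group. By the limit of 3 counts, depth holds Mir675 to below 0.447 and 0.508 CPM.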

Other observations

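Mir184, which has been reported as expressed from the paternal copy in brain, was looked up after the results above had been seen. It had 453 counts in replicate 1 (67.5 CPM) and 533 in replicate 2 (90.3 CPM), on chromosome 9 at 89802260 to 89802328. It was higher in replicate 2, with a log2 ratio of 0.58 (SE 0.09) and an adjusted p of 1.20e-05 by Fisher's exact test, whereas Mir296, Mir298 and Mir335 were lower there. Its difference from those genes was not tested.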
